A study of Homo sapiens with 8 samples.

Results

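The 43 genes described here encode immediate-early transcription factors, feedback regulators and other unstable mRNAs. They were taken by symbol from a list of named genes, with no threshold on a measured value, although the list was drawn up with earlier results of these data known, out of 60196 gene symbols that each stood on a single row of the count tables. RNA of P-bodies was compared with RNA of the cytosolic fraction in HEL, an erythroleukaemia line, and in MOLM-13, an acute myeloid leukaemia line of monocytic character. Each line gave 2 P-body and 2 cytosolic libraries. Both lines are unmodified and untreated as far as the labels say, and all libraries came from total RNA of cells grown in medium with serum. Not given in the sources used here is the way P-bodies were isolated. Nor do the labels say whether replicates are separate cultures, so the p-values reflect only the spread between libraries, which may be technical.

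P-bodies are cytoplasmic granules in which messenger RNAs sit outside active translation together with decapping and deadenylation factors and translational repressors. Immediate-early genes are switched on by signals such as the ERK cascade without new protein synthesis, and their mRNAs are removed quickly. Many of them carry AU-rich elements in the 3′ untranslated region (3′UTR), which proteins such as ZFP36 bind to bring in the deadenylase, and several encode inhibitors of the same signals.

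The AU-rich letters of a few members are shown because the results below set members with these letters against members without them. In GENCODE release 29 on GRCh38, at least 1 ATTTA pentamer was present in the 3′UTR of 32 of the 37 members tested in HEL (86.5%), against 70.1% of all tested coding genes. The nonamer TTATTTATT, which holds the pentamer once, was present in 11 of those 37 (29.7%), against 8.67% of all tested coding genes. Only the transcript strand was searched. In the last 500 bases of the 3′UTR, where the 3′UTR was at least that long, the nonamer was found in 7 of 33 members (21.2%), against 3.13% of all tested coding genes. Each run below is 30 bases of 3′UTR on the transcript strand, written 5′ to 3′, with the motif in capitals. The first 6 hold the nonamer and the last 4 hold the pentamer without any nonamer in the whole 3′UTR.
FOS (chr14:75282059-75282088, plus strand): gtgtttttaatTTATTTATTaagatggatt
TNFAIP3 (chr6:137882297-137882326, plus strand): tgtaattcactTTATTTATTttattacaaa
IER5 (chr1:181092446-181092475, plus strand): tcttcctTTATTTATTTATTTATTtaatta
SRF (chr6:43179223-43179252, plus strand): gatggcaccacTTATTTATTgttgcctttt
ZFP36 (chr19:39409193-39409222, plus strand): atttatgacgactTTATTTATTctaatatg
ZFP36L2 (chr2:43223448-43223477, minus strand): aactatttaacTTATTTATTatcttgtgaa
JUN (chr1:58781336-58781365, minus strand): ttccagaaaggatATTTAagaaaatacaat
JUND (chr19:18279998-18280027, minus strand): tcgattctgccctATTTAtgtttctactcg
NFKBIA (chr14:35401910-35401939, minus strand): aaaagaagaaaaaATTTAaagggtgtactt
BTG2 (chr1:203307527-203307556, plus strand): taaatgaagagctATTTAtatatattattt
The IER5 run is a chain of 3 overlapping nonamers. A match is a description of these letters and was not tested as a binding site.

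The HEL libraries held 13153551 to 18071473 counts and the MOLM-13 libraries 5897625 to 11000536. Erythroid and megakaryocytic markers fixed for these lines had 15 of 16 tested in HEL, with summed levels of 2190 to 2261 counts per 1000000 (CPM) in P-body libraries and 3348 to 3502 CPM in cytosolic libraries. Monocytic and granulocytic markers had 16 of 16 tested in MOLM-13, with summed levels of 3296 to 3393 CPM in P-body libraries and 5188 to 5513 CPM in cytosolic libraries. Their part in any result was not tested. CPM here are scaled with TMM size factors, and there is no spike-in. Each change is therefore relative to the other RNAs of the same library, and a smaller amount in P-bodies cannot be told apart from a larger amount of everything else.

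In HEL, the members were lower in P-bodies more often than they were higher. Of 37 tested members 17 (45.95%) were lower and 7 (18.9%) were higher, and 13 were not called (edgeR quasi-likelihood test, Benjamini-Hochberg adjusted p below 0.05 over all 14772 genes). Among all genes tested 27.1% were lower and 27.5% were higher. The median log2 change was -0.33 over members and -0.06 over all genes tested, and the member median ran from -0.45 without P-body library 2 to -0.18 without P-body library 1. The members lower in HEL P-bodies included 6 AP-1 subunits and partners and 3 dual-specificity phosphatases, and the members higher were NFKBIA, NR4A2, TNFAIP3, ID2, KLF6, BTG1 and KLF10.

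In MOLM-13, as many members were higher as were lower. Of 39 tested members 10 (25.6%) were higher, 10 (25.6%) were lower and 19 were not called. Among all 14089 genes tested 32.4% were higher and 28.5% were lower. The median log2 change was -0.0042 over members and -0.04 over all genes tested. When libraries were scaled by their totals and not by TMM, the median of the members was -0.44 in MOLM-13 and -0.65 in HEL, and that of all genes was -0.47 in MOLM-13 and -0.39 in HEL. That scaling split the members into 6 higher and 23 lower of 39 in MOLM-13 and 3 higher and 21 lower of 37 in HEL. It split all genes into 2903 higher and 7154 lower of 14089 in MOLM-13, and 2762 higher and 6761 lower of 14772 in HEL. It ended the calls of FOS, NR4A2, KLF10 and HES1 in MOLM-13 and of NR4A2, KLF6, KLF10 and BTG1 in HEL. All directions below are therefore relative to the bulk of genes.

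The members left out by the filter on low counts were FOSB, EGR2, EGR3, KLF2, KLF4 and IER3 in HEL, and EGR3, ID3, DUSP4 and ZFP36L1 in MOLM-13. KLF4, a zinc finger factor of monocytic cells, had 0 counts in all 4 HEL libraries, which allows up to 0.188 and 0.195 CPM in the P-body libraries and up to 0.204 and 0.173 CPM in the cytosolic libraries (3 counts each). EGR3, a zinc finger factor of the EGR family, was below the filter in both lines.

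**Figure D1:**
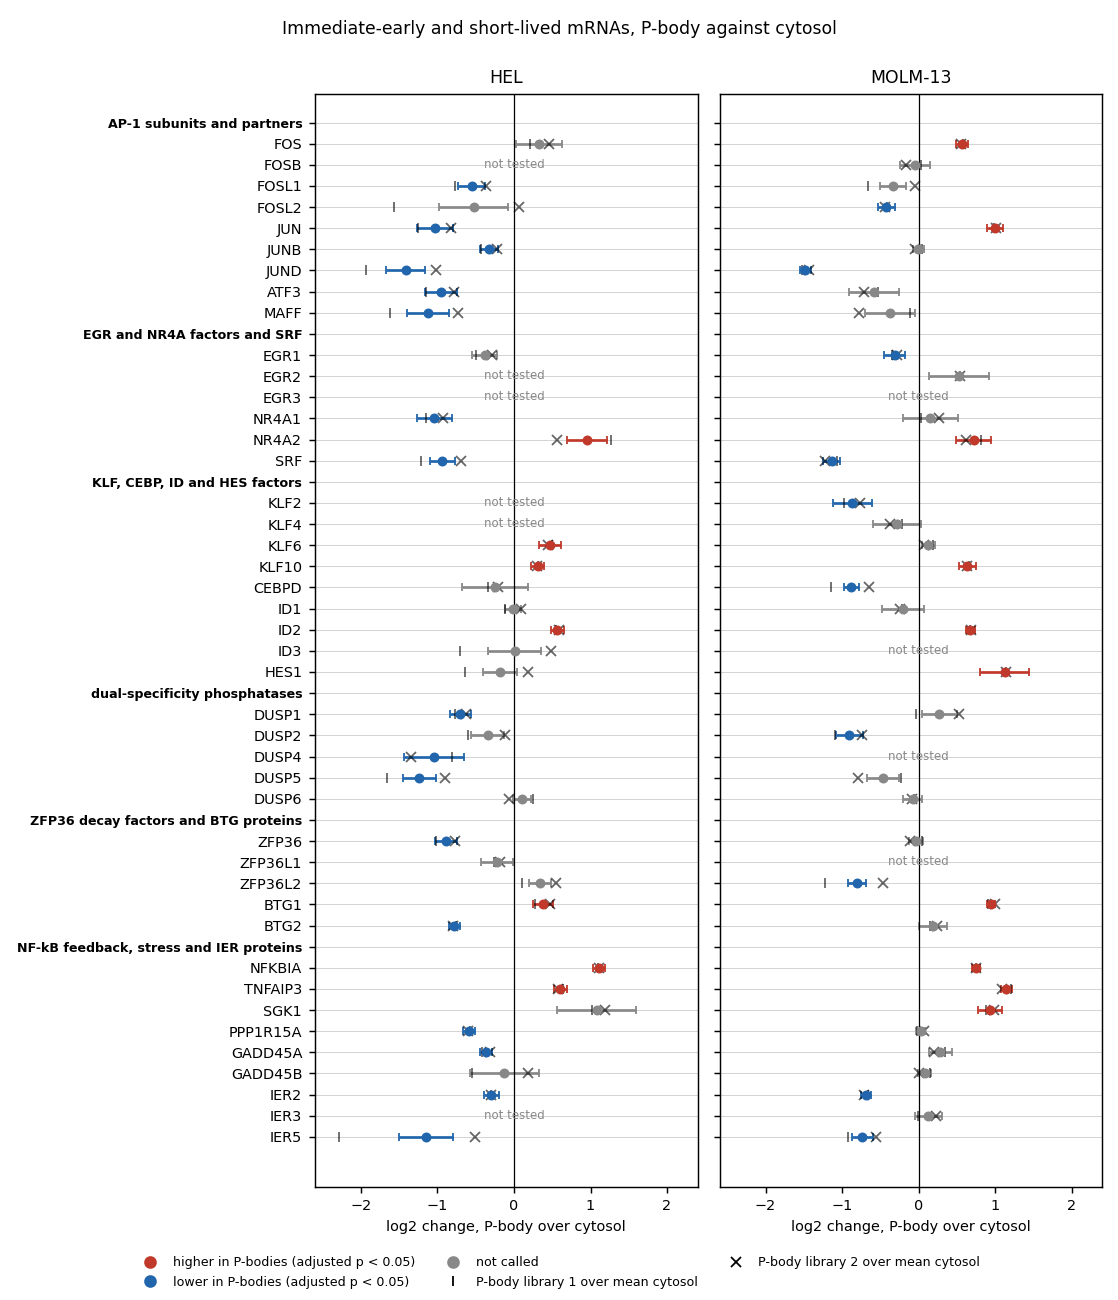
Log2 change of each member, P-body over cytosol, in HEL (left) and MOLM-13 (right), grouped by role. Circles with bars are the edgeR estimate ± SE and the ticks and crosses are P-body libraries 1 and 2, each over the mean of the cytosolic libraries. AP-1 subunits and phosphatases sit mostly left of 0 in HEL, while NFKBIA, TNFAIP3 and ID2 sit right of 0 in both lines.

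AP-1 is a dimer of FOS-type and JUN-type proteins, with ATF3 and MAFF as related leucine zipper partners. In HEL 6 of the 8 tested members of this group were lower in P-bodies and none was higher, with a median log2 change of -0.75, against 27.1% lower and 27.5% higher among all genes. With the trend of GC content and length removed, JUND and ATF3 were still called lower, FOSL1, JUN and MAFF were not called, and JUNB had a log2 change of 0.25, not called. In MOLM-13 2 of 9 were higher and 2 were lower, with a median of -0.34, against 32.4% higher and 28.5% lower among all genes.

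JUN, the founding JUN-type subunit (chr1:58780788-58784327), was the only member called in opposite directions in the lines by the test used throughout. In HEL it had 2.88 and 3.90 CPM in P-body libraries, against 6.18 and 7.61 CPM in cytosolic libraries. In MOLM-13 it had 49.4 and 50.2 CPM in P-body libraries, against 23.8 and 26.0 CPM in cytosolic libraries. The groups did not overlap in either line, and P-bodies were the lower fraction in HEL and the higher fraction in MOLM-13. JUN fell 2.04-fold in HEL P-bodies (log2 change -1.03 ± 0.23, SE, edgeR quasi-likelihood adjusted p = 0.00179). It rose 1.99-fold in MOLM-13 P-bodies (log2 change 0.99 ± 0.10, adjusted p = 5.97e-09). With the trend of GC content and length removed, the HEL change was -0.56 with an adjusted p of 0.0641.

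JUND, the JUN-type subunit that is present in resting cells (chr19:18279760-18281622), had the greatest fall among members in both lines. In HEL it had 6.14 and 11.5 CPM in P-body libraries, against 17.4 and 29.4 CPM in cytosolic libraries. The MOLM-13 P-body libraries had 58.4 and 62.2 CPM, against 179.9 and 157 CPM in the cytosolic libraries. Both P-body libraries were below both cytosolic libraries in each line, although library 1 was the lower of the pair in both HEL groups. The fall was 2.67-fold in HEL (adjusted p = 0.000269) and 2.79-fold in MOLM-13 (adjusted p = 5.38e-15).

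FOS, the founding FOS-type subunit (chr14:75278774-75282230), rose in MOLM-13 P-bodies and was not called in HEL. It had 96.2 and 94.0 CPM in MOLM-13 P-body libraries, against 59.9 and 68.5 CPM in MOLM-13 cytosolic libraries. All values of FOS in HEL lay between 1.90 and 3.12 CPM, and the groups overlapped. The rise in MOLM-13 was 1.48-fold (adjusted p = 7.25e-07), and with library totals it was 0.12 on the log2 scale with an adjusted p of 0.169. The difference between lines in FOS was not called (MOLM-13 minus HEL 0.24 ± 0.25 on the log2 scale, adjusted p = 0.55).

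MAFF, a small MAF protein (chr22:38200767-38216511), had 2.38 and 4.42 CPM in HEL P-body libraries, against 6.11 and 8.59 CPM in HEL cytosolic libraries. The groups did not overlap, and the fall was 2.17-fold (adjusted p = 0.00318). Without HEL cytosolic library 2 its log2 change was -0.85 with an adjusted p of 0.0541, and without HEL P-body library 1 it was -0.74. ATF3, a stress-induced leucine zipper factor, fell 1.94-fold in HEL (adjusted p = 0.00113). FOSL1, a FOS-type subunit, fell 1.47-fold in HEL (adjusted p = 0.0159), and the call was lost without HEL P-body library 1 (log2 change -0.36) and without HEL cytosolic library 2 (-0.54). JUNB, a JUN-type subunit that opposes JUN at some promoters, fell 1.25-fold in HEL (adjusted p = 0.0282), and the call was lost without the same libraries (-0.22 and -0.19). JUNB overlaps HOOK2, MAFF overlaps PLA2G6 and FOSB overlaps ERCC1 on the other strand, and reads of overlapping genes cannot be told apart because the strand setting is not given. PLA2G6 averaged 30.7 CPM in HEL with a log2 change of -0.74, where MAFF had 2.38 to 8.59 CPM. Whether reads of PLA2G6 make up part of the MAFF fall was not tested. HOOK2 averaged 4.90 CPM in HEL (log2 change -0.14), where JUNB had 35.05 to 51.4 CPM. ERCC1 averaged 189 CPM in MOLM-13, where FOSB had 7.75 to 9.74 CPM. In MOLM-13, ATF3, MAFF, FOSL1, JUNB and FOSB were not called. FOSL2, a FOS-type subunit, fell 1.34-fold in MOLM-13 (adjusted p = 0.00244), and without MOLM-13 cytosolic library 1 its log2 change was -0.30 with an adjusted p of 0.0725.

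The EGR zinc finger factors, the NR4A orphan nuclear receptors and SRF, the factor that binds serum response elements of many immediate-early promoters, formed the next group. In HEL 2 of 4 tested members were lower and 1 was higher, and in MOLM-13 2 of 5 were lower and 1 was higher. The shares of all genes were 27.1% lower and 27.5% higher in HEL, and 28.5% lower and 32.4% higher in MOLM-13. SRF (chr6:43171299-43181507) fell in both lines. In HEL it had 8.72 and 12.6 CPM in P-body libraries, against 19.7 and 20.9 CPM in cytosolic libraries. The MOLM-13 P-body libraries had 19.7 and 17.7 CPM of SRF, against 41.3 and 41.0 CPM in cytosolic libraries. The groups were well apart in both lines. The fall was 1.91-fold in HEL (adjusted p = 0.00023) and 2.20-fold in MOLM-13 (adjusted p = 3.42e-09).

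NR4A2, an orphan nuclear receptor (chr2:156324432-156342348), rose in both lines, while its paralogue NR4A1 fell in HEL. In HEL NR4A2 had 8.03 and 4.95 CPM in P-body libraries, against 3.46 and 3.23 CPM in cytosolic libraries. The MOLM-13 P-body libraries had 8.17 and 7.11 CPM of NR4A2, against 4.43 and 4.84 CPM in cytosolic libraries. P-body libraries were higher in each line, with a wide gap between the HEL P-body libraries. The rise was 1.94-fold in HEL (adjusted p = 0.0058) and 1.65-fold in MOLM-13 (adjusted p = 0.00891). Without HEL P-body library 1 the HEL log2 change was 0.57 with an adjusted p of 0.103, and without MOLM-13 P-body library 1 the MOLM-13 change was 0.61 with an adjusted p of 0.0679. NR4A1 had 3.07 and 3.58 CPM in HEL P-body libraries, against 5.97 and 7.67 CPM in HEL cytosolic libraries, a 2.06-fold fall (adjusted p = 0.0014). In MOLM-13 its values overlapped between fractions. EGR1, the best known of the EGR factors, was close to the threshold in both lines. Its log2 change was -0.38 in HEL (adjusted p = 0.0554) and -0.31 in MOLM-13 (adjusted p = 0.0493), and the MOLM-13 call was lost when any of the 4 libraries was left out (log2 change -0.35 to -0.28).

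KLF zinc finger factors, CEBPD, the ID inhibitors of helix-loop-helix factors and the Notch-induced repressor HES1 made up another group. In HEL 3 of 7 tested members were higher and none was lower, against 27.5% higher and 27.1% lower among all genes. In MOLM-13 3 of 8 were higher and 2 were lower, against 32.4% higher and 28.5% lower among all genes. ID2, an inhibitor of E proteins (chr2:8678845-8684453), rose in both lines and by much the same factor. In HEL it had 80.0 and 81.9 CPM in P-body libraries, against 54.3 and 54.8 CPM in cytosolic libraries. In MOLM-13 it had 282 and 284 CPM in P-body libraries, against 162 and 190.4 CPM in cytosolic libraries. No P-body library overlapped a cytosolic library. The rise was 1.48-fold in HEL (adjusted p = 6.01e-05) and 1.60-fold in MOLM-13 (adjusted p = 5.09e-10). ID1, a related inhibitor, was not called in either line, and its HEL values overlapped between 56.4 and 68.0 CPM.

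KLF6 (chr10:3775996-3785281), a broadly expressed zinc finger factor, rose in HEL and was not called in MOLM-13. It had 13.8 and 13.4 CPM in HEL P-body libraries, against 9.57 and 10.03 CPM in HEL cytosolic libraries. P-body libraries were the higher ones, and the rise was 1.39-fold (adjusted p = 0.0147). The call was lost without HEL P-body library 1 (log2 change 0.45) and without HEL cytosolic library 1 (0.44). KLF10, induced by transforming growth factor, rose 1.24-fold in HEL (adjusted p = 0.0055) and 1.56-fold in MOLM-13 (adjusted p = 1.23e-05), and its HEL change was -0.02 with library totals.

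HES1 (chr3:194136145-194138732) rose in MOLM-13 at a low level. It had 3.93 and 3.91 CPM in MOLM-13 P-body libraries, against 1.62 and 1.94 CPM in MOLM-13 cytosolic libraries, from 37, 33, 11 and 16 counts. The P-body libraries were higher, and the rise was 2.18-fold (adjusted p = 0.0045). CEBPD, a basic leucine zipper factor of myeloid cells (chr8:47736909-47739086), had 79.7 and 113 CPM in MOLM-13 P-body libraries, against 188 and 166 CPM in MOLM-13 cytosolic libraries. Both P-body libraries were lower, and the fall was 1.84-fold (adjusted p = 1.82e-08). KLF2, a factor of quiescent lymphoid and endothelial cells (chr19:16324817-16327874), had 3.08 and 3.56 CPM in MOLM-13 P-body libraries, against 6.05 CPM in each MOLM-13 cytosolic library. The fall was 1.83-fold (adjusted p = 0.00523), and it rested on 29 to 50 counts per library.

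Dual-specificity phosphatases switch off MAP kinases and are themselves induced by them. In HEL 3 of 5 tested phosphatases were lower in P-bodies and none was higher, with a median log2 change of -0.70, against 27.1% lower among all genes. With the trend of GC content and length removed, DUSP5 was still called, and DUSP1 (adjusted p = 0.0769) and DUSP4 (adjusted p = 0.104) were not. In MOLM-13 1 of 4 was lower and none was higher, against 28.5% lower and 32.4% higher among all genes. DUSP5, a nuclear ERK phosphatase (chr10:110497838-110511544), had 3.95 and 6.70 CPM in HEL P-body libraries, against 11.5 and 13.4 CPM in HEL cytosolic libraries. Both P-body libraries were well below both cytosolic libraries, and the fall was 2.35-fold (adjusted p = 0.000217). DUSP4, a nuclear phosphatase (chr8:29333064-29350668), had 0.941 and 0.651 CPM in HEL P-body libraries, against 1.70 and 1.61 CPM in HEL cytosolic libraries. It was called lower (2.06-fold, adjusted p = 0.0368) on 10 to 28 counts per library, and the call was lost without HEL P-body library 2 (log2 change -0.73) and without either HEL cytosolic library (-1.01 and -1.08). DUSP2, a phosphatase of activated leukocytes (chr2:96143166-96145440), had 7.96 and 10.2 CPM in MOLM-13 P-body libraries, against 18.3 and 15.7 CPM in MOLM-13 cytosolic libraries. The groups did not overlap, and the fall was 1.87-fold (adjusted p = 8.05e-05). DUSP1, which acts on stress kinases, fell 1.62-fold in HEL (adjusted p = 0.000408) and was not called in MOLM-13. DUSP6, a cytoplasmic ERK phosphatase, was not called in either line, with log2 changes of 0.10 in HEL and -0.08 in MOLM-13.

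The ZFP36 proteins bind AU-rich elements and BTG1 and BTG2 bind the deadenylase itself, so this group encodes part of the decay machinery. In HEL 2 of 5 tested members were lower and 1 was higher, and in MOLM-13 1 of 4 was lower and 1 was higher. The shares of all genes were 27.1% lower and 27.5% higher in HEL, and 28.5% lower and 32.4% higher in MOLM-13. BTG1 and BTG2 moved in opposite directions in HEL. BTG1 (chr12:92140278-92145897) had 25.3 and 28.9 CPM in HEL P-body libraries, against 22.4 and 19.3 CPM in HEL cytosolic libraries. The MOLM-13 P-body libraries had 384.5 and 411 CPM of BTG1, against 209 and 203 CPM in cytosolic libraries. P-body libraries were higher in both lines, by a wide margin in MOLM-13. The rise was 1.30-fold in HEL (adjusted p = 0.0221) and 1.93-fold in MOLM-13 (adjusted p = 2.89e-14). The HEL call was lost without HEL P-body library 2 (log2 change 0.36) and without HEL cytosolic library 2 (0.27). With the trend of GC content and length removed, BTG1 was called lower in HEL (-0.39, edgeR adjusted p = 0.0222). With that trend removed, the MOLM-13 change of BTG1 was 0.08 and was not called (adjusted p = 0.2025). BTG2 (chr1:203305491-203309602) had 98.1 and 95.1 CPM in HEL P-body libraries, against 163 and 168 CPM in HEL cytosolic libraries. The MOLM-13 P-body libraries had 10.4 and 11.0 CPM of BTG2, against 8.71 and 10.1 CPM in cytosolic libraries. The HEL groups were far apart and the MOLM-13 groups were nearly level. BTG2 fell 1.71-fold in HEL (adjusted p = 6.67e-07) and was not called in MOLM-13 (adjusted p = 0.396).

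ZFP36 (chr19:39406813-39409412) had 9.28 and 11.0 CPM in HEL P-body libraries, against 18.9 and 18.7 CPM in HEL cytosolic libraries. In MOLM-13 it had 72.5 and 65.1 CPM in P-body libraries, against 62.3 and 78.3 CPM in cytosolic libraries. The HEL groups were apart and the MOLM-13 groups overlapped. ZFP36 fell 1.86-fold in HEL (adjusted p = 0.000105). ZFP36L2, its relative (chr2:43222402-43226609), fell in MOLM-13 and was not called in HEL. It had 109 and 185 CPM in MOLM-13 P-body libraries, against 264 and 247 CPM in MOLM-13 cytosolic libraries, and the fall was 1.74-fold (adjusted p = 2.9e-06). The P-body libraries differed widely from each other, and the log2 change was -0.46 without MOLM-13 P-body library 1 and -1.23 without MOLM-13 P-body library 2. In HEL, ZFP36L2 had 50.4 and 68.5 CPM in P-body libraries, against 40.6 and 53.3 CPM in cytosolic libraries. The HEL values overlapped, and the log2 change was 0.34 (adjusted p = 0.0622). ZFP36L2 was called higher in HEL by several alternatives, namely with RLE size factors (0.38, adjusted p = 0.0126), without a filter (adjusted p = 0.0133) and by DESeq2 (adjusted p = 0.0405). The others were the fits with the trend removed (0.73, adjusted p = 0.000698) and with the replicate number as a block (0.34, adjusted p = 0.00667). ZFP36L2 was also called higher without HEL P-body library 1 (0.54) and without HEL cytosolic library 2 (0.55). It was not called in HEL with library totals (0.01) or with a minimum of 5 CPM (0.32). Without HEL P-body library 2 the HEL log2 change was 0.18, and without HEL cytosolic library 1 it was 0.16. The calls of ZFP36L2 were opposite in the lines with RLE size factors, without a filter, with the trend removed and with the replicate number as a block. DESeq2 did not call ZFP36L2 in MOLM-13 (-0.79, adjusted p = 0.0746).

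**Figure D2:**
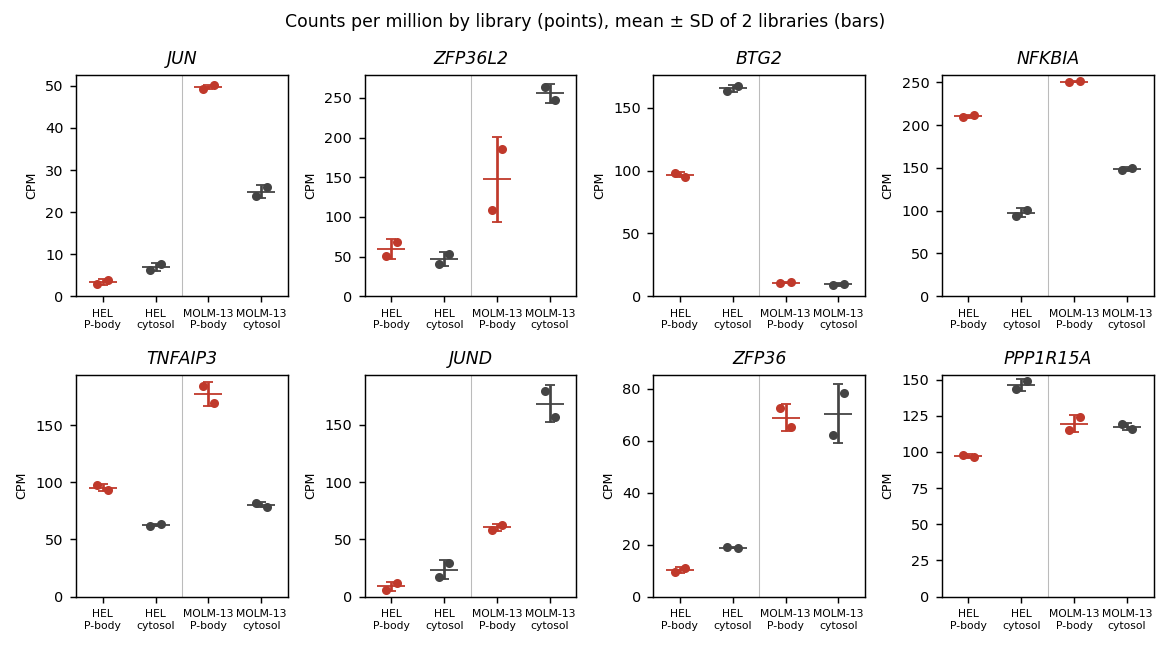
CPM of 8 members in each library, with P-body libraries (red) left of cytosolic libraries (grey) for each line, and the mean ± SD of 2 libraries as bars. JUN is lower in P-bodies of HEL and higher in P-bodies of MOLM-13, JUND is lower in both, and NFKBIA and TNFAIP3 are higher in both.

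NFKBIA encodes the inhibitor that holds NF-κB in the cytoplasm and TNFAIP3 encodes a ubiquitin-editing enzyme that ends NF-κB signalling, and both are induced by NF-κB. They were grouped with stress genes and IER genes, where in HEL 2 of 8 tested members were higher and 4 lower, and in MOLM-13 3 of 9 were higher and 2 lower. The shares of all genes were 27.5% higher and 27.1% lower in HEL, and 32.4% higher and 28.5% lower in MOLM-13. NFKBIA (chr14:35401511-35404749) had the greatest rise among members in HEL. It had 209 and 212 CPM in HEL P-body libraries, against 94.0 and 101 CPM in HEL cytosolic libraries. In MOLM-13 it had 250.5 and 251 CPM in P-body libraries, against 147 and 150.1 CPM in cytosolic libraries. The libraries of each group lay close together and the groups were far apart in both lines. The rise was 2.15-fold in HEL (log2 change 1.11 ± 0.08, SE, adjusted p = 1.38e-08) and 1.69-fold in MOLM-13 (adjusted p = 6.28e-12).

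TNFAIP3 (chr6:137867188-137883312) had the greatest rise among members in MOLM-13. It had 185 and 169.9 CPM in MOLM-13 P-body libraries, against 81.8 and 78.7 CPM in MOLM-13 cytosolic libraries. In HEL it had 97.4 and 93.0 CPM in P-body libraries, against 62.2 and 63.2 CPM in cytosolic libraries. P-body libraries were clearly higher in both lines. The rise was 2.21-fold in MOLM-13 (adjusted p = 8.5e-14) and 1.52-fold in HEL (adjusted p = 2.65e-05). SGK1, a kinase induced by serum and glucocorticoid (chr6:134169246-134318112), had 19.5 and 21.0 CPM in MOLM-13 P-body libraries, against 9.89 and 11.3 CPM in MOLM-13 cytosolic libraries. The groups did not overlap, and the rise was 1.90-fold (adjusted p = 1.16e-05). In HEL, SGK1 had 5 to 13 counts per library and was not called (adjusted p = 0.0887).

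PPP1R15A, the subunit that brings a phosphatase to the initiation factor eIF2 and restarts translation after stress (chr19:48872392-48876057), had 98.0 and 96.3 CPM in HEL P-body libraries, against 143 and 149 CPM in HEL cytosolic libraries. The MOLM-13 P-body libraries had 115 and 124 CPM of PPP1R15A, against 119 and 116 CPM in cytosolic libraries. The HEL groups were apart and the MOLM-13 groups overlapped. It fell 1.51-fold in HEL (adjusted p = 1.44e-05) and was not called in MOLM-13. GADD45A, a p53-induced growth arrest gene, fell 1.29-fold in HEL (adjusted p = 0.0016), and GADD45B was not called in either line. IER2, an immediate-early nuclear protein, fell 1.61-fold in MOLM-13 (adjusted p = 5.19e-09) and 1.23-fold in HEL (adjusted p = 0.0202), and its HEL call was lost without HEL P-body library 1 (log2 change -0.29), P-body library 2 (-0.22) or cytosolic library 1 (-0.27). With the trend of GC content and length removed, IER2 was called higher in HEL (0.29, adjusted p = 0.0291). IER5 (chr1:181088712-181092899), an immediate-early gene that acts on the heat shock factor, had 4.83 and 16.6 CPM in HEL P-body libraries, against 18.2 and 29.1 CPM in HEL cytosolic libraries. The spread within each HEL group was wide. The fall was 2.22-fold in HEL (adjusted p = 0.0121), and the log2 change of -1.15 was -0.51 without HEL P-body library 1, -2.22 without P-body library 2 and -0.77 without cytosolic library 2, where the call was lost (adjusted p = 0.0887). In MOLM-13, IER5 fell 1.67-fold (adjusted p = 5.85e-05).

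Levels of different members were compared per kilobase of transcript. In P-bodies NFKBIA had the highest level of the 43 members, with a mean of 135 CPM per kilobase in HEL and 161 CPM per kilobase in MOLM-13. In HEL cytosol GADD45A was highest, with 103 CPM per kilobase, and NFKBIA followed with 62.7 CPM per kilobase, next to ID1 with 62.6, PPP1R15A with 61.5 and BTG2 with 61.0 CPM per kilobase. NFKBIA was also highest in MOLM-13 cytosol, with 95.5 CPM per kilobase, followed by JUND with 90.4, ID2 with 86.4 and CEBPD with 81.3 CPM per kilobase. JUND had 32.4 CPM per kilobase in MOLM-13 P-bodies and stood at rank 12 there, against rank 2 in MOLM-13 cytosol. BTG1 stood at rank 3 in MOLM-13 P-bodies, with 85.0 CPM per kilobase, against rank 8 in MOLM-13 cytosol, with 44.0 CPM per kilobase.

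In HEL P-body library 2, 29 of 37 members were higher than in P-body library 1, with a median log2 ratio of 0.21, and FOSL2, ID3 and IER5 differed by more than 2-fold. The same ratio had a median of 0.06 between HEL cytosolic libraries, -0.0052 between MOLM-13 P-body libraries and -0.014 between MOLM-13 cytosolic libraries. Of the 24 members called in HEL, 15 kept their call in every fit that left out 1 library, and of the 20 called in MOLM-13, 17 did. Neither the ratios nor the kept calls were counted over all genes, so they do not set the members apart from other genes.

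Whether a member's change differed between the lines was tested with the interaction term of a fit over all 8 libraries, MOLM-13 minus HEL. Among the 34 members tested in both lines 10 differed upwards, 3 differed downwards and 21 were not called. P-values were adjusted over all 17477 genes of that fit, and of the 11984 genes tested in both lines 21.4% differed upwards and 10.6% downwards. The median difference was 0.23 over these members and 0.11 over all those genes. Its sign depended on the size factors. Over the 42 members in the fit the median was 0.16, with 0.056 without HEL P-body library 1 and 0.32 without HEL P-body library 2. It was 0.040 with library totals, 0.064 with the trend of GC content and length removed and -0.035 with TMM factors over all libraries, where the median of all genes was -0.11. JUN had the lowest adjusted p of the members, with a difference of 2.03 ± 0.23 on the log2 scale (adjusted p = 2.65e-06). The differences with the next lowest adjusted p were those of PPP1R15A (0.62 ± 0.10, adjusted p = 0.000134), BTG2 (0.96 ± 0.16, adjusted p = 0.000199), TNFAIP3 (0.54 ± 0.11, adjusted p = 0.000846) and ZFP36 (0.86 ± 0.18, adjusted p = 0.00131). PPP1R15A, BTG2 and ZFP36 were near level in MOLM-13 and lower in HEL P-bodies, and TNFAIP3 was higher in both lines and more so in MOLM-13. The calls of DUSP1, NR4A1, HES1, IER2 and GADD45A in this test depended on single libraries. ZFP36L2 differed the other way, by -1.13 ± 0.24 (adjusted p = 0.00145). For JUND and SRF the difference was not called (-0.06 ± 0.28 and -0.20 ± 0.21, adjusted p = 0.936 and 0.561).

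By their calls in the single lines, 6 members were higher in both (NR4A2, KLF10, ID2, BTG1, NFKBIA and TNFAIP3) and 4 were lower in both (JUND, SRF, IER2 and IER5). With the trend of GC content and length removed, IER2 was called higher in HEL and SRF was not called there (edgeR adjusted p = 0.0793). Of the members higher in both, BTG1 was then called lower in HEL (-0.39, adjusted p = 0.0222) and not called in MOLM-13. KLF10 was not called in either line (adjusted p = 0.275 in HEL and 0.0775 in MOLM-13), nor NR4A2 in MOLM-13 (adjusted p = 0.0735). ID2, NFKBIA and TNFAIP3 kept their calls in both lines. A further 11 were lower in HEL and not called in MOLM-13, among them JUNB, DUSP1, ZFP36, BTG2 and GADD45A. Another 5 were lower in MOLM-13 and not called in HEL (FOSL2, EGR1, CEBPD, DUSP2 and ZFP36L2). Across the 34 members the log2 changes in the lines had a Pearson's r of 0.58 and the same sign in 24 members. Across all 11984 genes r was 0.71 and 8967 had the same sign. These correlations are across genes, which are not independent replicates.

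**Figure D3:**
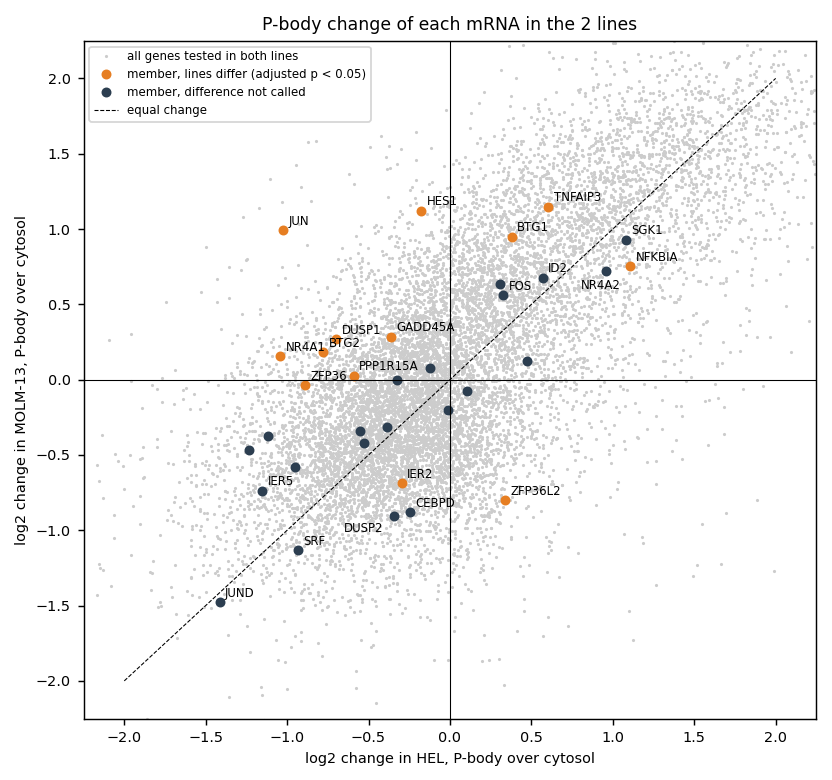
Log2 change, P-body over cytosol, in HEL (x axis) and MOLM-13 (y axis) for all genes tested in both lines (light grey) and for the 34 members tested in both, with members whose lines differed in orange. Genes beyond the axis limits are not drawn. JUN lies far into the upper left, JUND and SRF lie near the line of equal change in the lower left, and NFKBIA and NR4A2 lie in the upper right.

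Transcripts of the members were rich in G and C. The median GC content was 54.4% over the 37 members tested in HEL, against 48.4% over 11791 coding genes tested in HEL, and 55.1% over the 39 members tested in MOLM-13, against 48.6% over 11097 coding genes. Across all coding genes the log2 change fell with GC content (Pearson's r = -0.64 in HEL and -0.71 in MOLM-13). Across the members r was -0.49 in HEL and -0.66 in MOLM-13. In HEL, members with a GC content under 50% had 5 higher and 1 lower of 10, members of 50 to 60% had 2 higher and 10 lower of 19, and members over 60% had 0 higher and 6 lower of 8. Among all coding genes of the same GC ranges, 53.5%, 5.68% and 1.53% were higher and 11.7%, 51.3% and 56.9% were lower. In MOLM-13, the counts of members were 6 higher and 1 lower of 9, 4 higher and 3 lower of 21, and 0 higher and 6 lower of 9. The same ranges of all coding genes had 63.9%, 9.57% and 1.51% higher and 6.92%, 44.5% and 71.4% lower.

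A smooth trend on GC content and transcript length explained 36.9% of the variance of the log2 change across genes in HEL and 41.5% in MOLM-13. Against this trend the members of HEL were evenly split, with 18 above and 19 below and a median of -0.03, and in MOLM-13 25 were above and 14 below, with a median of 0.24. With the trend removed in the fit, 7 of 37 members were higher and 7 lower in HEL, and 13 of 39 were higher and 8 lower in MOLM-13. Of all genes in the same fits, 3231 of 14380 were higher and 3264 lower in HEL. In MOLM-13 3535 of 13673 were higher and 3115 lower. The calls of JUN, SRF, MAFF, NR4A1, DUSP1 and PPP1R15A in HEL and of BTG1, DUSP2, KLF2 and NR4A2 in MOLM-13 were among those lost. NFKBIA stood 1.40 above the trend in HEL and 0.96 above it in MOLM-13, on the log2 scale. ID2 stood 0.90 above it in HEL and 0.84 in MOLM-13, and TNFAIP3 stood 0.71 above it in HEL and 1.05 in MOLM-13. JUN was at -0.56 in HEL and at 1.28 in MOLM-13, the greatest distance above the trend among members there. IER5 was at -1.02 in HEL and -0.82 in MOLM-13, and JUND was at -0.79 in HEL and -0.52 in MOLM-13. Of the MOLM-13 falls, that of CEBPD, the member with the highest GC content (70.0%), was at 0.07 from the trend.

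**Figure D4:**
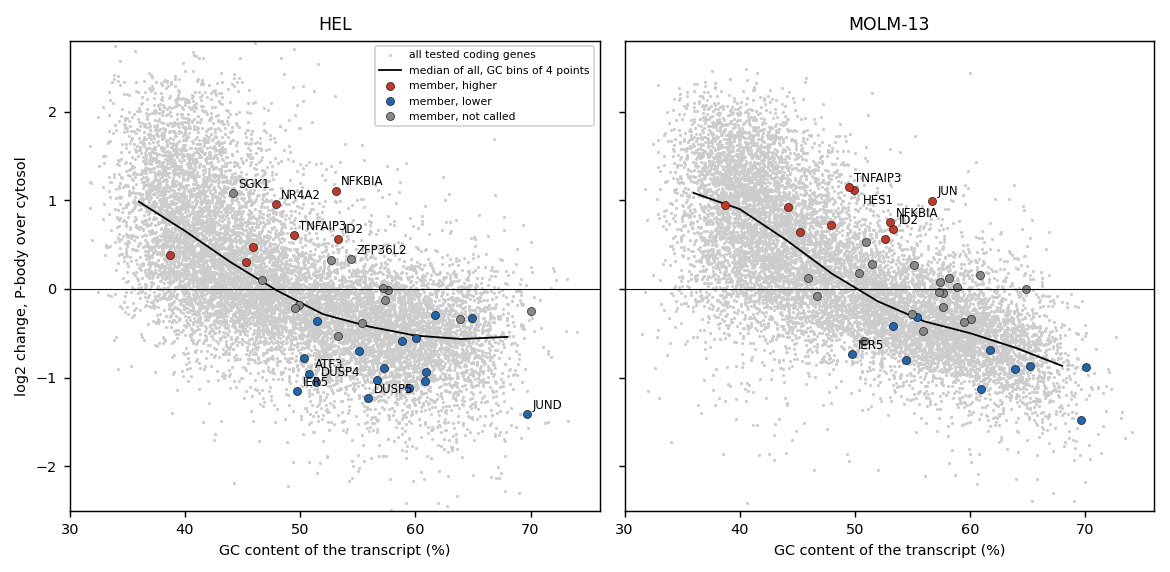
Log2 change, P-body over cytosol, against the GC content of the transcript (%) for all tested coding genes (light grey, with the median per GC bin as a black line) and for the members, red where higher, blue where lower and dark grey where not called. Genes beyond the axis limits are not drawn. NFKBIA and ID2 lie above the median line in both lines, JUN lies above it in MOLM-13, and IER5 lies below it in both.

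Members with the AU-rich nonamer were found on both sides. In HEL, of 11 members with TTATTTATT 1 was higher, 6 were lower and 4 were not called, with a median log2 change of -0.70, and of 26 members without it 6 were higher, 11 lower and 9 not called, with a median of -0.27. In MOLM-13, of 9 members with it 2 were higher, 4 lower and 3 not called, with a median of -0.37, and of 30 without it 8 were higher, 6 lower and 16 not called, with a median of 0.05. TNFAIP3 and FOS, whose nonamers are printed above, were higher in MOLM-13 P-bodies, and IER5, SRF and ZFP36L2, with nonamers too, were lower there. NFKBIA, which has pentamers and no nonamer, had the greatest rise in HEL. Across members the number of ATTTA per kilobase of 3′UTR had r = 0.018 with the log2 change in HEL and 0.12 in MOLM-13, against 0.27 and 0.32 across all coding genes, in that order of lines. By rank (Spearman's rho) the values were 0.13 and 0.23 across members and 0.38 and 0.43 across all coding genes. PPP1R15A, with a 3′UTR of 84 bases, had 23.8 ATTTA per kilobase, against a member median of 2.375. The GC content of the tested members ran from 38.7% to 70.0%, and neither count was separated from GC content.

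The pathway that induces these genes and the factors that read their AU-rich elements were counted from lists fixed by name. Among all genes tested 27.5% were higher and 27.1% lower in HEL, and 32.4% were higher and 28.5% lower in MOLM-13. Of the ERK and SRF pathway 13 of 32 tested genes rose and 12 fell in HEL, and 16 of 33 rose and 11 fell in MOLM-13. RPS6KA5, a kinase that phosphorylates chromatin at immediate-early genes, rose 4.81-fold in HEL (adjusted p = 2.62e-11) and 3.70-fold in MOLM-13 (adjusted p = 2.68e-18). MRTFA, the cofactor of SRF, fell 2.12-fold in HEL, and MAP2K7, a kinase upstream of JNK, fell 2.65-fold in MOLM-13. Of the readers of AU-rich elements with the deadenylation and decapping enzymes 14 of 35 were higher and 9 lower in HEL, and 20 of 35 were higher and 6 lower in MOLM-13. TNRC6A, a scaffold of microRNA silencing, rose 4.29-fold in HEL, and EDC4, a decapping scaffold, fell 2.15-fold there. XRN1, the exonuclease that degrades decapped mRNA, rose 3.05-fold in MOLM-13, and KHSRP, a reader of AU-rich elements, fell 2.09-fold there.

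Other short-lived mRNAs that are not members had 10 of 51 tested genes higher and 26 lower in HEL, with a median log2 change of -0.40, and 17 of 52 higher and 17 lower in MOLM-13, with a median of -0.05. The shares of all genes were 27.5% higher and 27.1% lower in HEL, and 32.4% higher and 28.5% lower in MOLM-13. The extremes were ARID5B, a DNA-binding factor, which rose 5.36-fold in HEL, IL1B, the cytokine interleukin-1 beta, which rose 5.05-fold in MOLM-13, and BCL3, a nuclear IκB protein, which fell 4.23-fold in HEL and 2.59-fold in MOLM-13. In a list of noncoding RNAs drawn up as nuclear-retained, 2 of 9 rose and 3 fell in HEL P-bodies, and 3 of 9 rose and 4 fell in MOLM-13. No nuclear fraction was sequenced, so whether each of them is nuclear in these lines was not tested. SNHG14 rose 4.14-fold in HEL (adjusted p = 6.74e-11) and OIP5-AS1 rose 2.62-fold in MOLM-13 (adjusted p = 1.94e-18). NEAT1, a scaffold of nuclear paraspeckles, fell 2.16-fold in HEL and 1.90-fold in MOLM-13 (adjusted p = 4.83e-06 and 1.16e-12).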

How the data were processed

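The deposited tables, 1 for each line, hold whole-number read counts by gene symbol, which the authors had not normalized as far as the values show. Per the submitters' processing notes, STAR, SAMtools 1.12, DESeq2 and the build GRCh38 were used by the authors. Not given in the sources used here are the read counter, annotation, strand setting and filters. Per the labels, the library kit was NEBNext Ultra II.

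A set of 112 symbols on 1348 rows, with at most 0.0477% of the counts of a library, was left out. Each line was fitted alone with edgeR 4.0.16 in R 4.3.3 (TMM, filterByExpr with a smallest count of 10, quasi-likelihood test, Benjamini-Hochberg over all genes tested). SEs were derived from the quasi-likelihood F statistic. The difference fit used the TMM factors of each line's own fit, a choice made after seeing the data. GC content, length and 3′UTR came from the principal coding transcript of GENCODE release 29, and the trend was fitted with mgcv 1.9.3. DESeq2 1.42.0 was an alternative. The scripts were checked on simulated data. Of 100 genes with a true log2 change of 1, 92% were recovered in HEL, 100% in MOLM-13 and 75% in the difference. Among the genes called, 1.54%, 5.21% and 6.21% were false, in that order. The changed genes were drawn from those above a minimum mean count, so recovery at low counts was not checked.

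The members, context lists and alternatives were chosen with earlier results of these data known. Values in every library are given for the 5 greatest rises and falls called in each line, members called in opposite directions, and the 5 lowest adjusted p of the difference. In each context list the greatest called rise and fall are named. Values of other members were added after they were seen. The limit of a count of 0 covers counting error only.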

Additional observations from a re-analysis of the deposited data

Results flagged for a closer look

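The P-body change of 13 of the 34 members tested in both lines differed between MOLM-13 and HEL, 10 upwards and 3 downwards. This was by the interaction term of the fit over 8 libraries (edgeR quasi-likelihood, adjusted p below 0.05). Of the 11984 genes tested in both lines 21.4% differed upwards and 10.6% downwards. Values are MOLM-13 minus HEL on the log2 scale. JUN differed by 2.03 (adjusted p = 2.65e-06), HES1 by 1.30 (adjusted p = 0.0377) and NR4A1 by 1.20 (adjusted p = 0.0447). DUSP1 differed by 0.97 (adjusted p = 0.0105), BTG2 by 0.96 (adjusted p = 0.000199) and ZFP36 by 0.86 (adjusted p = 0.00131). GADD45A differed by 0.65 (adjusted p = 0.00421), PPP1R15A by 0.62 (adjusted p = 0.000134), BTG1 by 0.57 (adjusted p = 0.00168) and TNFAIP3 by 0.54 (adjusted p = 0.000846). NFKBIA differed by -0.35 (adjusted p = 0.00874), IER2 by -0.39 (adjusted p = 0.0207) and ZFP36L2 by -1.13 (adjusted p = 0.00145).

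Of these 13, 8 were called in every fit that left out 1 library (JUN, ZFP36, ZFP36L2, BTG1, BTG2, NFKBIA, TNFAIP3 and PPP1R15A). The call of DUSP1 was lost without MOLM-13 P-body library 2 (0.67) and without MOLM-13 cytosolic library 2 (0.91), and that of GADD45A without MOLM-13 cytosolic library 2 (0.52). IER2 lost its call without HEL cytosolic library 2 (-0.37), MOLM-13 P-body library 2 (-0.36) or MOLM-13 cytosolic library 2 (-0.34). The calls of NR4A1 and HES1 were lost in most such fits, without HEL P-body library 1 for example (1.09 for NR4A1 and 0.95 for HES1). With TMM factors over all libraries of both lines, an alternative added after seeing the data, the difference of NFKBIA was -0.54, that of BTG1 was 0.38 and that of TNFAIP3 was 0.35, and NR4A1 (1.01) and HES1 (1.11) were not called.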

How the results depend on the processing

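With library totals in place of TMM, 6761 genes were lower in HEL, and the members had 3 higher and a median of -0.65. In MOLM-13 library totals gave 2903 genes higher and 7154 lower, while 6 members were higher and 23 were lower, at a median of -0.44. With the GC and length trend removed, 7 of 37 members and 3264 of 14380 genes were lower in HEL. The member median was then -0.037 in HEL and 0.23 in MOLM-13. DESeq2 called 2607 genes lower in MOLM-13 and 1491 higher in the difference, and with a minimum of 5 CPM the MOLM-13 median was -0.081. TMM over all libraries, added after seeing the data, gave 1600 genes higher and 2275 lower in the difference. Leaving out 1 library gave MOLM-13 medians of -0.054 to 0.078 and 6 to 11 members higher in the difference. Directions reversed with library totals for KLF10 in HEL (-0.018) and for KLF6 (-0.31), PPP1R15A (-0.41) and GADD45B (-0.36) in MOLM-13. With the trend removed they reversed for JUNB (0.25), ID1 (0.42), BTG1 (-0.39) and IER2 (0.29) in HEL, and for JUNB (0.68), KLF6 (-0.23), CEBPD (0.062) and ZFP36 (0.32) in MOLM-13. DESeq2 did not call FOSL1, JUNB, KLF6, DUSP4, IER2 and IER5 in HEL and EGR1, NR4A2, KLF2, HES1 and ZFP36L2 in MOLM-13. The cause was not tested.

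With the replicate number as a block, 8 members were higher and 16 lower in HEL, 10 and 10 in MOLM-13, and 9 and 3 in the difference, and ZFP36L2 was called higher in HEL (0.34, adjusted p = 0.00667). Deviations of libraries with the same number had correlations across genes of -0.07 in HEL and -0.01 in MOLM-13. No shared deviation by number was seen, but this cannot show whether libraries with the same number came from the same culture. Leaving out a library leaves 1 in its group, which is assumed to vary like the others. Members under about 30 counts per library, such as DUSP4, SGK1 and FOSL2 in HEL, are limited by depth.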
